A study of Drosophila melanogaster with 150 samples.

Results

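The peroxiredoxin gene Prx6c was either high or low on whole-fly arrays of Drosophila melanogaster, and the 2 classes of arrays are compared here across all other genes. The classes were chosen on the Prx6c signal itself. An array was placed in the high class where the probe set that matches Prx6c alone read above 7.8 on the log2 scale, and otherwise in the low class, which gave 32 high and 118 low arrays of 150. Each array held RNA of pooled adult males from a vial of 1 recombinant inbred line, a roo line in the labels. The 75 lines each had an array labelled control, from food with 250 uM sodium acetate (NaAc), and an array labelled lead, from food with 250 uM lead acetate (PbAc). Vials were founded by 20 males and 20 females on 10 ml of food at 25 degrees C, and 65 sons aged 5 to 10 days were pooled. The 32 high arrays comprised 15 labelled control and 17 labelled lead, and the 118 low arrays 60 and 58. All groups share the inbred background of a roo line and the sodium or lead salt of acetate in the food.

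Peroxiredoxins are thiol enzymes that reduce hydrogen peroxide and organic peroxides, and the Prx6 group is the form with a single active cysteine. Prx6c lies on chromosome arm 2R, with its relatives Prx6b and CG12896 only 3 and 4 places away in gene order. In recombinant inbred lines each chromosome is a mosaic of founder segments, so that alleles lying close together on a chromosome tend to be inherited together. Genes are therefore described by their place, counted in genes from Prx6c, with minus for the side toward arm 2L and plus for the side away from it. The gene order of 2L was continued into 2R, and Prx6c was place 888 of 3649 on 2R.

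The arrays were alike in overall signal, with medians from 5.29 to 5.55. Each array was correlated with every other, and the median of these correlations was 0.955 to 0.987 in the high class and 0.965 to 0.987 in the low class. RNA quality, read as the 3' minus 5' signal of the Act5C control probe sets, was 2.71 ± 0.585 (SD, n = 32) and 2.74 ± 0.585 (SD, n = 118). MtnB, a metallothionein with a wide gap between low and high arrays, was taken up as a covariate. The arrays above 10 in MtnB numbered 16 of 32 in the high class and 60 of 118 in the low class, with p = 1 in Fisher's exact test, 2-sided.

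Prx6c signal ran from 8.77 through a median of 10.14 to 10.93 on the high arrays and from 4.66 through a median of 5.47 to 7.58 on the low arrays. The means were 10.08 ± 0.480 (SD, n = 32) and 5.51 ± 0.367 (SD, n = 118), a difference of 4.57 that the choice of classes fixes and that has no test. The SD of Prx6c over all arrays was 1.92, rank 27 among the probe sets, against a median of 0.219. The widest gap, 1.19, lay between the control array of line 43 at 7.58 and the lead array of line 40 at 8.77. Next below came the lead array of line 35 at 6.88, the lead array of line 12 at 6.57 and the control array of line 222 at 6.46. Next above came the control array of line 40 at 9.29, the lead array of line 10 at 9.37 and the lead array of line 31 at 9.39. A further probe set, which matches Prx6b, CG12896 and Prx6c together, read 9.47 ± 0.516 (SD, n = 32) on the high arrays and 9.41 ± 0.492 (SD, n = 118) on the low arrays, a difference of 0.069 given without a test because the probe set holds Prx6c. The step was not seen on this shared probe set. Differences in transcript level and differences in the sequence under the probes cannot be told apart from these values, here and for every gene below.

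**Figure D1:**
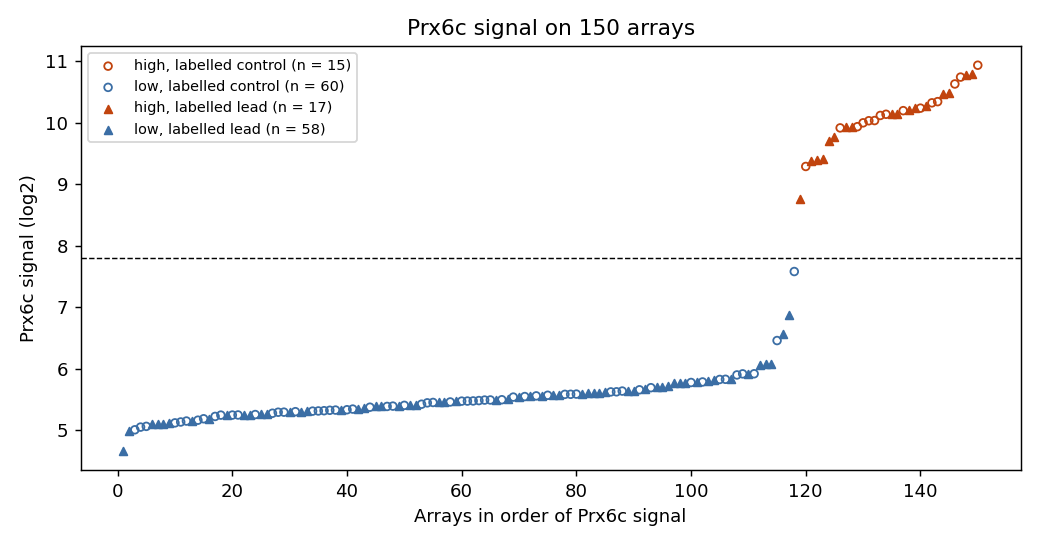
Prx6c signal (log2, vertical axis) on the 150 arrays in ascending order (horizontal axis), with the threshold of 7.8 dashed, open circles for arrays labelled control and filled triangles for arrays labelled lead. The 32 high arrays lie between 8.77 and 10.93, the 118 low arrays between 4.66 and 7.58, and both labels occur in both classes.

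Both classes occurred under both labels and, in many lines, within a line. Against labelled diet Fisher's exact test gave p = 0.842, with 17 of 32 high arrays labelled lead. Both arrays of a line were high in 6 lines and both were low in 49. In 9 lines the control array alone was high and in 11 lines the lead array alone, so 20 of 75 lines held an array of each class. The exact test of agreement between the arrays of a line gave p = 0.0909, with an odds ratio of 2.97. The lines with both arrays high were 10, 40, 202, 206, 213 and 218. Among the 57 lines numbered 1 to 100 the counts were 2 both high, 17 split and 38 both low (p = 1). Among the 18 lines numbered above 200 they were 4 both high, 3 split and 11 both low (p = 0.0114), a split of the lines chosen after seeing the data. Line numbers above 200 made up 11 of 32 high arrays and 25 of 118 low arrays, p = 0.160. A roo line is inbred, so its arrays carry the same labelled genotype on both foods. Whether each array's values belong to its labelled line and diet could not be settled from the files, so tests by diet and by line describe the labels only, and why 20 lines split was not tested. The groups below are therefore classes of arrays, not of lines.

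A split line holds an array on each side of the threshold by definition, so a step within it follows from the choice of classes. The lead array of line 14 read 10.80 and its control array 5.44. The control array of line 44 read 10.93 and its lead array 5.81. The smallest step in a split line, in line 35, was from 6.88 on the lead array to 10.34 on the control array.

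Over the other probe sets, 213 of 18766 (1.14%) differed between the classes at a Benjamini-Hochberg adjusted p under 0.05 in limma, with the MtnB side as a covariate. Of these, 116 (0.618%) were higher and 97 (0.517%) lower on the high arrays. A probe set that passed is called higher or lower below, and all differences are high minus low. The median absolute difference of those that passed was 0.27, against 0.034 over all probe sets, and 179 of them were under 0.5. In no probe set (0 of 18766, 0%) were the classes free of overlap. The 174 that passed and carried 1 gene symbol stood for 163 of 11979 measured genes. Of the 163, 99 lay on 2R, where 2427 genes were measured, 40 on 2L and 24 on other arms. A gene counts as passing where any of its probe sets passed. Counts of genes and shares of probe sets are therefore not on the same scale. In bulk RNA, fewer cells of a type and less RNA per cell cannot be told apart.

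Of 15 measured genes up to 10 places from Prx6c, 4 passed (26.7%, against 1.14% of all probe sets and 163 of 11979 measured genes). All 4 were higher, and 3 of them lay on the side away from 2L. Cyp49a1, a cytochrome P450, lay 8 places away and read 6.17, 6.48 and 7.91 (lowest, median, highest) on the high arrays against 5.45, 6.16 and 6.91 on the low arrays. Its classes overlapped, with 6 of 32 high arrays above every low array. The difference was 0.42 ± 0.055 (SE), with an adjusted p of 5.67e-09 in limma. Caf1-105, a subunit of the chromatin assembly factor, lay 9 places away and read 4.50, 5.10 and 7.10 against 4.39, 4.79 and 5.47. Here 8 high arrays exceeded every low array, and the difference was 0.36 ± 0.058 (SE), adjusted p = 1.72e-06 in limma. CG11777, 10 places away, differed by 0.20 and CG33475, the neighbour at -1, by 0.088, the latter at an adjusted p of 0.0435 in limma that reached 0.16 with a line left out. CG33475 was dim in both classes, at medians of 2.64 and 2.55.

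The other 11 neighbours did not pass in limma, and 1 of them had an unadjusted p under 0.05. They were the gustatory receptor Gr47a, the ionotropic receptor Ir47a, the G protein subunit Galphao, RanBPM, CG42733, CG12898, CG33477, CG33476, CG11825, CG33474 and CG12895. Their differences ran from -0.12 for CG42733 to 0.080 for CG11825, and their 95% intervals stayed between -0.23 and 0.23. The immediate neighbour at +1, CG11825, read 3.76, 4.40 and 6.07 on the high arrays and 3.88, 4.42 and 5.59 on the low arrays, so its medians were alike although 4 high arrays lay outside the range of the low ones.

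The smallest p of all probe sets belonged to lola, 15 places from Prx6c. It encodes a family of BTB zinc finger transcription factors, made by splicing a shared start to many alternative ends, that are known for axon guidance. On probe set 1628946_at lola read 6.71, 7.27 and 8.55 (lowest, median, highest) on the high arrays and 7.71, 8.20 and 8.89 on the low arrays. Of the 32 high arrays, 23 lay below every low array and 9 inside the range of the low arrays. The difference was -0.79 ± 0.056 (SE), with 95% bounds of -0.90 and -0.68 and adjusted p = 2.89e-25 in limma. With a line left out it stayed between -0.84 and -0.77.

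The 15 probe sets of lola did not move together. Of them 4 were higher, 2 were lower and 9 did not pass. Probe set 1627324_at was higher by 0.50 ± 0.060 (SE), at means of 4.75 and 4.25, and 1624729_at by 0.35 ± 0.039 (SE), at means of 6.80 and 6.45. Smaller increases were seen on 1630936_at at 0.22 and 1635096_at at 0.15, the latter at an adjusted p that reached 0.054 in limma with some line left out. Probe set 1634495_s_at was lower by 0.27 ± 0.053 (SE), from 7.99 to 7.71. A further probe set that matches lola together with another gene, 1637581_at, was lower by 0.34 ± 0.048 (SE), adjusted p = 9.82e-08 in limma, and is not among the 15. The files do not say which transcript each probe set reads, so the opposite directions are given by probe set only.

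**Figure D2:**
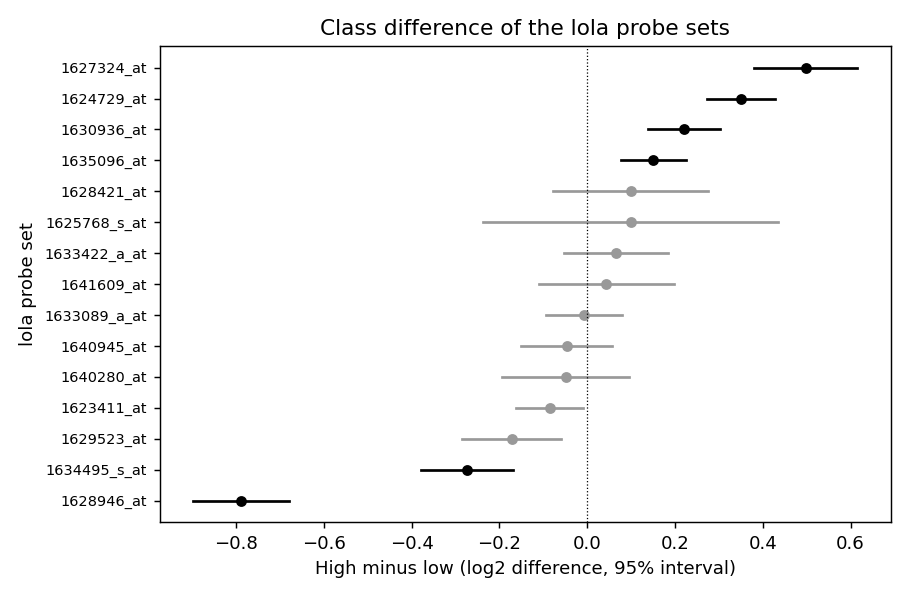
High minus low log2 difference (horizontal axis) of the 15 lola probe sets (vertical axis), with points for the limma estimates and bars for their 95% intervals. Black marks an adjusted p under 0.05: 4 probe sets are higher, up to 0.50, and 2 are lower, down to -0.79.

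The 9 high arrays whose lola signal lay inside the range of the low arrays came from 8 lines, and 3 of them lay above the low-class median of 8.20. They included both arrays of line 40, at 8.55 on the control array and 7.87 on the lead array, which had the 2 lowest Prx6c signals of the high class. They also included the lead array of line 10 at 8.17 and the control array of line 206 at 8.04, whose other arrays read 7.29 and 7.42. The other lines with both arrays high read lower on both. In line 202 lola was 7.06 and 7.28, in line 213 7.40 and 7.09, and in line 218 7.60 and 7.02 on the control and lead arrays. In the 20 split lines the high array had the lower lola signal in 20, with a median within-line difference of -0.97 and a range from -1.54 to -0.031. This is a description, since lola was picked for its p over arrays that include these.

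Within 50 places of Prx6c, 14 of 64 measured genes passed (21.9%, against 1.14% of all probe sets). Counted by gene, 163 of 11979 passed over all arms and 99 of 2427 on 2R. CG33144 at +36 was higher by 0.26 ± 0.030 (SE), adjusted p = 5.6e-11 in limma, at medians of 7.08 against 6.83. Smaller increases were seen in Obp46a, an odorant binding protein, at 0.15, in CG12909 at 0.22, in CG12934 at 0.19, in CG12341 at 0.13, in Nop10, a component of the box H/ACA ribonucleoprotein, at 0.23 and in mms4, a subunit of a DNA endonuclease, at 0.14. CG12912 was lower by 0.19 ± 0.033 (SE), and CG18011 by 0.15 ± 0.035 (SE). Among these genes Nop10, CG12909, CG12934 and mms4 each lost the call when some line was left out, with adjusted p up to 0.059, 0.15, 0.17 and 0.29 in limma. Obp46a, CG12912 and CG18011 were dim in both classes. Their means were 2.78, 2.98 and 3.28 on the high arrays and 2.63, 3.17 and 3.43 on the low arrays.

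Farther out on 2R, 2 genes on the side toward 2L stood next to lola in p. CG1827 at -159 read 6.59, 7.14 and 8.22 on the high arrays against 7.17, 7.92 and 8.42 on the low arrays. Of the 32 high arrays, 17 lay below every low array, and the difference was -0.62 ± 0.055 (SE), adjusted p = 9.24e-18 in limma. CG1663 at -121 read 4.93, 5.52 and 6.35 against 5.45, 5.99 and 6.48, with 14 high arrays below every low array. Its difference was -0.49 ± 0.047 (SE), adjusted p = 9.27e-16 in limma.

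**Figure D3:**
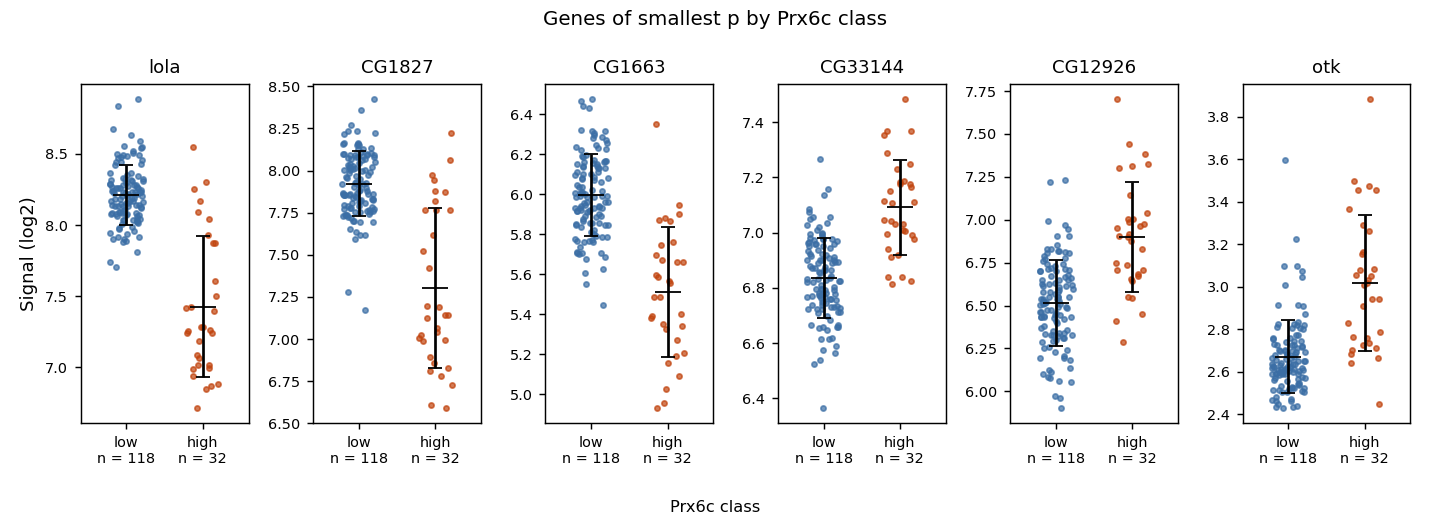
Signal (log2, vertical axes on separate scales) of the 6 named genes of smallest p on the 118 low and 32 high arrays (horizontal axes), with a point for each array, a bar at the mean and whiskers of 1 SD. The lola, CG1827 and CG1663 signals are lower on most high arrays, by 0.79, 0.62 and 0.49, while CG33144, CG12926 and otk are higher by 0.26, 0.39 and 0.35, and every gene shows overlap.

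Higher genes of 2R more than 50 places away included otk at +236, a kinase-like receptor of the Wnt pathway, which read 2.45, 3.01 and 3.88 against 2.43, 2.64 and 3.60. The difference of otk was 0.35 ± 0.042 (SE). This gene was dim in both classes, and 1 of 32 high arrays lay outside the range of the low ones. CG12926 at -150 was higher by 0.39, san at +151, an acetyltransferase needed for sister chromatid cohesion, by 0.26, and CG13230 at +86 by 0.45. Pdk at -181, the kinase that inhibits pyruvate dehydrogenase, was higher by 0.52 on a probe set and by 0.21 on its other, both called. The smaller of these differences lost its call with some line left out, at an adjusted p up to 0.0896 in limma. CanB2, a regulatory subunit of calcineurin, was higher by 0.18, CG14757 by 0.60 and CG2065 by 0.64. The largest difference among named genes was that of CG34227 at +104, which read 6.37, 7.82 and 9.53 on the high arrays against 3.95, 6.49 and 9.56 on the low arrays. It was 1.26 ± 0.193 (SE), adjusted p = 4.47e-07 in limma, and no high array lay outside the range of the low ones.

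Lower genes of 2R beyond 50 places included eIF3j, a subunit of a translation initiation factor, by 0.18 ± 0.027 (SE), and uno by 0.41 ± 0.066 (SE). CG17977 was lower by 0.38 ± 0.059 (SE), CG42493 by 0.38 ± 0.063 (SE), CG34033 by 0.45 ± 0.076 (SE) and CG30020 by 0.28 ± 0.050 (SE). The other probe set of CG30020 read 0.064 and did not pass. The digestive protease betaTry at +141 read 8.66, 12.00 and 13.24 against 10.39, 12.86 and 13.60. Its difference was -0.90 ± 0.159 (SE), adjusted p = 2.58e-05 in limma. It was the only one of 33 gut digestive genes to pass (3.03%, against 1.14% of all probe sets). With betaTry, 4 of the 33 (12.1%) had an unadjusted p under 0.05, against 9.58% of all probe sets.

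Cytochrome P450s are heme enzymes that oxidise hormones, fatty acids and toxic compounds. Of 80 measured P450 genes 6 passed (7.5%, against 1.14% of all probe sets), 4 higher and 2 lower, and all 6 lay on 2R. On 2R 3.88% of probe sets passed. Toward 2L 8.67% did from 201 to 400 places, where Cyp6a14, Cyp4e1 and Cyp4ad1 lie, and 7.97% from 401 to 800, where Cyp6a2 lies. Place and family were not separated here, so the count is not read as a result about the family. Of the 80 genes 45 lie on chromosome 2, and 15 of the 80 (18.8%) had an unadjusted p under 0.05, against 9.58% of all probe sets. The median difference of the 80 was 0.024, against -0.0052 over all probe sets. Cyp6a14 at -344 read 3.87, 5.59 and 7.97 on the high arrays against 3.80, 7.03 and 8.13 on the low arrays, a difference of -1.15 ± 0.160 (SE) with an adjusted p of 3.37e-08 in limma. Cyp4e1 and Cyp4ad1, 3 places apart at -357 and -360, differed in opposite directions. Cyp4e1 read 4.77, 6.18 and 7.04 against 4.36, 5.44 and 6.52 and was higher by 0.63 ± 0.089 (SE). Cyp4ad1 read 4.77, 6.33 and 7.08 against 5.25, 6.93 and 7.62 and was lower by 0.65 ± 0.092 (SE). Beside Cyp49a1 the others, named after their values were seen, were Cyp6a2, higher by 0.94 ± 0.161 (SE), and Cyp9b2, higher by 0.46 ± 0.114 (SE).

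On 2L, 43 of 2463 probe sets (1.75%) passed, with 24 of 580 among the last 1000 genes next to 2R and 19 of 1883 among the others. CG9338 at -1208 read 6.76, 8.08 and 9.41 against 6.47, 7.27 and 8.41 and was higher by 0.70 ± 0.094 (SE), adjusted p = 1.04e-08 in limma. CG17490 at -911 was higher by 0.68 and by 0.60 on its 2 probe sets. Both were dim, at medians of 3.52 and 3.09 on the high arrays and 2.82 and 2.55 on the low arrays. CG9331 and CG9328, both within 20 places of CG9338, were higher by 1.06 ± 0.188 (SE) and 0.32 ± 0.065 (SE).

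Some 2L genes were near the floor of the array in most of the low class. The tetraspanin Tsp39D at -1134 read 2.28, 3.66 and 5.84 on the high arrays and 2.22, 2.44 and 5.02 on the low arrays, a difference of 0.99 ± 0.146 (SE). Hr38 at -1241, the fly's nuclear receptor of the NR4A group, read 2.21, 3.57 and 5.61 against 2.17, 2.46 and 5.02. Hr38 was higher by 0.95 ± 0.143 (SE) on that probe set and lower by 0.40 ± 0.085 (SE) on its other probe set. CG6583 was higher by 0.38 and CG34367 by 0.37. CG42748 was higher by 0.39 on a probe set, while its other read -0.051 and did not pass. Of the 27 called genes with several probe sets, on all arms, 20 had exactly 1 called. Ca-beta, the beta subunit of voltage-gated calcium channels, was higher by 0.59 ± 0.132 (SE) on 1 of its 3 probe sets.

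Lower on 2L was CG11629 at -960, which read 2.59, 4.18 and 5.33 against 2.62, 4.87 and 6.11. It differed by -0.83 ± 0.115 (SE), adjusted p = 3.93e-08 in limma. The long noncoding RNA lncRNA:CR43242 differed by -0.46, CG31815 by -0.35, ttm3, a mitochondrial import subunit, by -0.28, CG31759 by -0.26, CG1428 by -0.25, CG33090 by -0.21 and CG6565 by -0.14. The other probe sets of lncRNA:CR43242 and CG33090 read -0.30 and -0.081 and did not pass. ProtA, a protamine of sperm chromatin, was lower by 0.28 ± 0.077 (SE), and its adjusted p of 0.0387 in limma reached 0.10 with a line left out. It was the only one of 30 testis genes to pass (3.33%, against 1.14% of all probe sets). With ProtA, 7 of the 30 (23.3%) had an unadjusted p under 0.05, against 9.58% of all probe sets.

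The share of probe sets called was higher near Prx6c than far from it, and the sides of Prx6c differed in how far it reached. Away from 2L the share was 28.6% (14 of 49) in the first 50 places, 10.3% (4 of 39) in the next 50, 19.1% (17 of 89) from 101 to 200 and 4.46% (7 of 157) from 201 to 400. The farthest called probe set on that side lay 250 places away. In the 1733 probe sets more than 400 places away on that side none passed in limma, and 127 (7.33%) had an unadjusted p under 0.05, against 9.58% of all probe sets. Toward 2L the share was 13.5% (5 of 37) in the first 50 places, 11.1% (4 of 36) in the next 50 and 16.9% (14 of 83) from 101 to 200. It then ran on at 8.67% (13 of 150) from 201 to 400, 7.97% (24 of 301) from 401 to 800 and 5.73% (26 of 454) from 801 to 1600. This last stretch spans the place where 2L meets 2R. Beyond it, on the rest of 2L, 21 of 2068 (1.02%) passed, against 1.14% of all probe sets, and 295 (14.3%) had an unadjusted p under 0.05, against 9.58%. Across arms the share was 3.88% on 2R, 1.75% on 2L, 0.457% on X, 0.3% on 3L and 0.205% on 3R. On chromosome 4, 0 of 82 passed in limma and 7 had an unadjusted p under 0.05. The shares are descriptions, since neighbouring genes are inherited together and several probe sets read the same gene.

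**Figure D4:**
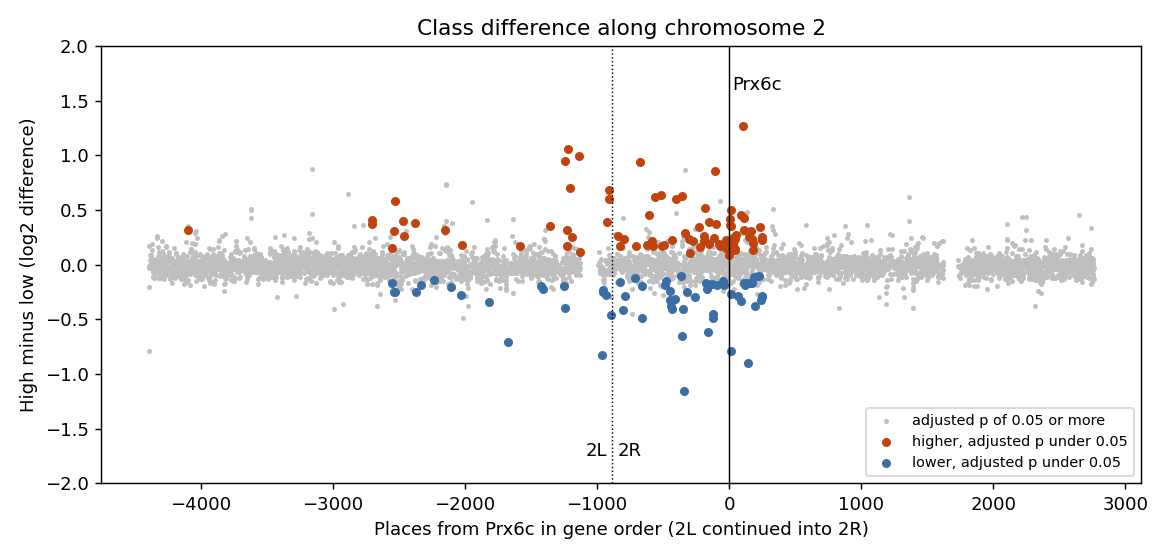
High minus low log2 difference (vertical axis) of each probe set on 2L and 2R by its place from Prx6c in gene order (horizontal axis), with a dotted line where 2L meets 2R and a solid line at Prx6c. Orange (higher) and blue (lower) points have an adjusted p under 0.05. They reach from Prx6c across the place where 2L meets 2R into 2L, and stop 250 places away on the other side.

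**Figure D5:**
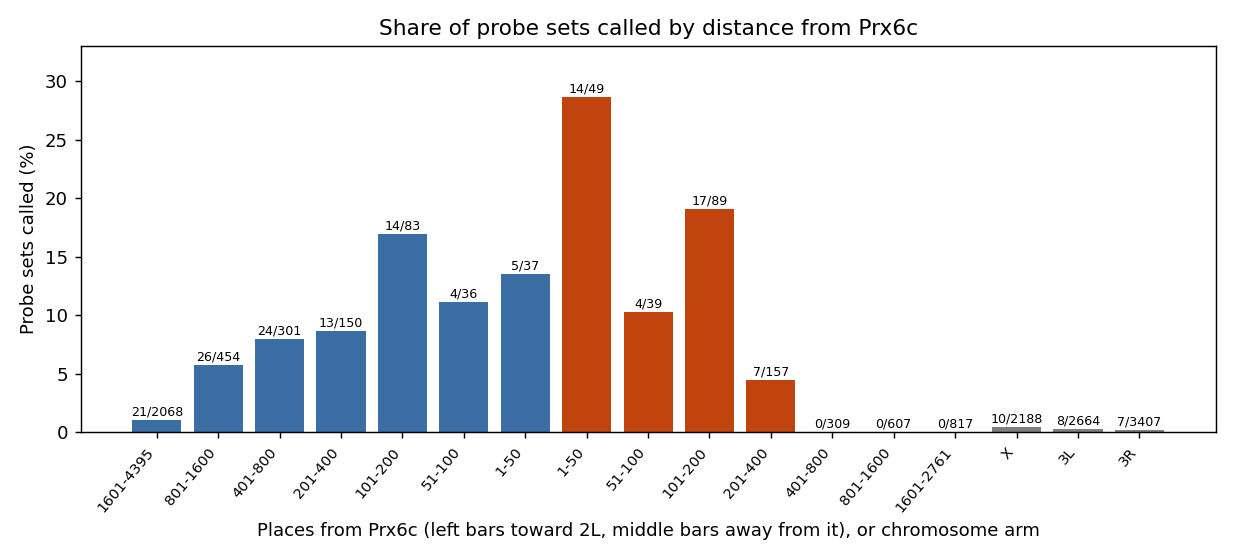
Percentage of probe sets called at an adjusted p under 0.05 (vertical axis, from 0) in bands of places from Prx6c, with bars toward 2L at the left in blue, bars away from 2L in the middle in orange, and arms X, 3L and 3R at the right in grey. Numbers above the bars are probe sets called over probe sets tested, and the share is highest, at 28.6%, in the first 50 places away from 2L.

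On the other arms few genes passed. Of 213 calls 25 (24 genes) lay on X, 3L or 3R, 15 higher and 10 lower, with differences from -0.38 to 0.55 and no adjusted p below 0.00482 in limma. CG3592 on X was lower by 0.26 ± 0.060 (SE), at medians of 3.82 and 4.05. CG40160 on 3L was lower by 0.30 ± 0.070 (SE), at medians of 8.38 and 8.65. AnxB9 on 3R, an annexin, was higher by 0.25 ± 0.060 (SE) and by 0.20 ± 0.048 (SE) on 2 of its 3 probe sets and is named after its values were seen. Mvl, a metal ion transporter of the NRAMP family on 3R, was higher by 0.17 ± 0.046 (SE). It was the only one of 26 metal transport and metallothionein genes to pass (3.85%, against 1.14% of all probe sets). With Mvl, 6 of the 26 (23.1%) had an unadjusted p under 0.05, against 9.58% of all probe sets. Snap25, a SNARE protein of the synapse on 3L, was lower by 0.23 ± 0.058 (SE). It was the only one of 24 neuronal genes to pass (4.17%), and with it 3 of the 24 (12.5%) had an unadjusted p under 0.05. Mvl and Snap25 lost their calls with some line left out, at adjusted p up to 0.094 and 0.072 in limma. With each line left out in turn, 8 of the 25 calls on other arms passed every time, against 102 of the 149 on chromosome 2.

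A further 39 probe sets that passed have no place, 32 without a gene name in the platform annotation and 7 that match several genes. They included the largest differences of all. Probe set 1624437_s_at was higher by 1.71 ± 0.250 (SE) and probe set 1626392_s_at by 1.46 ± 0.216 (SE). Probe set 1636758_s_at was lower by 1.31 ± 0.192 (SE). Probe set 1626604_at, which matches several genes, was lower by 1.29 ± 0.137 (SE) and had the smallest adjusted p of the 39, 5.43e-13 in limma. These are unnamed here and are given by their identifiers.

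The redox lists held peroxiredoxins, superoxide dismutases, catalase and peroxidases, thioredoxins and glutaredoxins, and glutathione genes. Of their 66 genes 0 passed in limma, where 1.14% of all probe sets did. An unadjusted p under 0.05 was seen in 7 of the 66 (10.6%), against 9.58% of all probe sets. Of the 3 other peroxiredoxins with a probe set of their own, none passed in limma and 1 had an unadjusted p under 0.05. The difference was -0.16 for Prx1 (95% interval -0.27 to -0.05), 0.060 for the mitochondrial Prx3 (-0.05 to 0.17) and 0.022 for Prx6a (-0.05 to 0.09). The superoxide dismutases with probe sets of their own were Sod2, of mitochondria, and Sod3, of the outside of the cell. They differed by 0.023 (-0.08 to 0.13) and 0.080 (-0.05 to 0.21), and catalase (Cat) by 0.055 (-0.07 to 0.18). Of 10 superoxide dismutase, catalase and peroxidase genes and of 15 thioredoxin and glutaredoxin genes 0 passed in limma, with 1 and 2 at an unadjusted p under 0.05. The 36 glutathione transferases gave 0, with 3 unadjusted, and the 2 glutathione synthesis genes gave 0 and 0 unadjusted.

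Among metallothioneins, small cysteine-rich metal-binding proteins, MtnA differed by 0.19 (95% interval 0.04 to 0.34), MtnC by 0.20 (-0.08 to 0.49) and MtnD by 0.16 (-0.10 to 0.42). None of them passed in limma. MtnC ran from 8.64 to 13.34 on the high arrays and from 7.90 to 13.43 on the low arrays, so both classes spanned nearly its whole range.

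The remaining lists, of other tissues and states, held no called gene. Male accessory gland genes were bright in these male flies, with a median level of 11.33 on the high and 11.31 on the low arrays. Yolk and eggshell genes were dim at the median array, at 3.77 and 3.66. The highest array mean of the yolk and eggshell list was 8.79 in the high class and 7.48 in the low class, for which the cause was not tested. In limma 0 passed of 20 yolk and eggshell genes, 20 male accessory gland genes, 19 muscle genes, 14 phototransduction genes, 10 iron genes, 10 antimicrobial genes, 6 heat shock genes and 4 Turandot genes. At an unadjusted p under 0.05 these lists held, in the same order, 1, 1, 2, 0, 1, 2, 0 and 0 genes. Over all probe sets 9.58% had such a p and 1.14% passed. At these shares a list this short may hold no call, so the counts of 0 do not set these lists apart. The median differences of these lists ran from -0.055 for phototransduction to 0.17 for yolk and eggshell.

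The comparison was repeated within each label, on arrays that share no sample but carry the same 75 labelled lines. Of these lines 6 were high and 49 low under both labels, so the comparisons are not independent by labelled line. On the arrays labelled control, with 15 high and 60 low, 36 probe sets passed (0.192%). On the arrays labelled lead, with 17 and 58, 77 passed (0.41%). Of the 36, all 36 had the same direction on the arrays labelled lead, 31 with an unadjusted p under 0.05, where 6.6% of all probe sets had one. Of the 77, 76 had the same direction on the arrays labelled control and 70 an unadjusted p under 0.05, where 4.63% of all probe sets had one. The 22 that passed under both labels included lola, which differed by -0.86 on the control arrays and -0.72 on the lead arrays. CG1663 differed by -0.43 and -0.54, CG1827 by -0.47 and -0.76, otk by 0.41 and 0.29 and Cyp49a1 by 0.38 and 0.44. Of the calls on other arms, 1 of 25 passed on the control arrays and 0 on the lead arrays in limma. CG40160, that gene, differed by -0.47 on the control arrays and -0.15 on the lead arrays.

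The class differences were not shown to depend on the label or on the MtnB side. A test of class by labelled diet gave 0 of 18766 probe sets (0%) in limma, with 375 at an unadjusted p under 0.05 and a smallest adjusted p of 1.00. The genes of smallest p were rumi, CG42811, Ir31a, CG15375 and CG10660, with interactions between -0.21 and 0.33. A test of class by MtnB side gave 0 (0%), with 783 unadjusted and a smallest adjusted p of 0.997. Its genes of smallest p were CG14341 at 0.18 ± 0.044 (SE), br, a transcription factor of the ecdysone response, at 0.25 ± 0.069 (SE), CG9119 at -0.73 ± 0.210 (SE), CG6908 at -0.86 ± 0.251 (SE) and smp-30, also below 0.

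The labelled line was also taken up in the fit. With line as a random block 202 probe sets passed (1.08%), all among the 213. With labelled line as fixed terms, so that only the 20 split lines bear on the difference, 22 probe sets passed (0.117%), all 22 among the 213. They included lola at -0.85, CG1663 at -0.54, CG1827 at -0.55, CG12926 at 0.41, CG33144 at 0.31 and CG34227 at 1.40. The high array of a split line was the lower in CG1663 in 20 of 20 lines and in CG1827 in 16, and the higher in Cyp4e1 in 19, in CG34227 in 18 and in Cyp49a1 and Caf1-105 in 17. Of the 58 named genes called over all arrays 46 were not called with fixed terms, among them Cyp4e1, Cyp49a1 and Caf1-105 at adjusted p of 0.056, 0.068 and 0.084 in limma. On 2L, CG9338 was higher in 16 of 20 lines, Tsp39D in 13 and Hr38 in 12, and their within-line differences with fixed terms, 0.49, 0.68 and 0.58, did not pass, at adjusted p of 0.61, 0.84 and 1.00 in limma.

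Among probe sets with 1 gene symbol, the 10 genes whose signal was most like that of Prx6c over the 150 arrays lay on chromosome 2, and probe sets with no name or several were not ranked. By absolute Pearson correlation the 10 were lola at -0.78, CG1827 at -0.68, CG1663 at -0.65, otk at 0.58, CG13230 at 0.55, CG33144 and CG14757 at 0.54 and CG17490, san and CG9338 at 0.53. These are descriptions over the arrays that defined the classes. Within the high class the correlation was -0.48 for lola, 0.48 for otk, 0.48 for CG13230 and -0.09 for CG33144. Within the low class it was -0.36 for lola, -0.01 for CG1827, 0.02 for CG1663 and otk and 0.36 for CG13230.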

How the data were processed

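The authors deposited 1 table of 150 arrays of the platform, 75 labelled control and 75 labelled lead, whose values read as log2 signals per probe set, taken from their range of 1.93 to 14.04. The sources used here do not give the summary method, the normalization or the log base. The deposited log2 values were used as they stand. The array number limits the precision.

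Of 18952 probe sets 183 array controls were left out, and Prx6c, the probe set it shares with its relatives, and MtnB were not tested, which left 18766 with no filter. The platform annotation pairs 13646 of 18769 probe sets with a single symbol, 402 with more than 1 and 4721 with none. Names are given for the first kind alone. Of these, 13548 were placed in the gene order of RefSeq's table for Release 6 plus ISO1 MT, used for order only since the build of the array design is not given.

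Class differences were fitted with limma 3.58.1 in R 4.3.3 (lmFit and eBayes, MtnB side as covariate) over all arrays, with Benjamini-Hochberg adjustment over all probe sets. The fit was tested on simulated data. Counts of arrays and lines used Fisher's exact test (scipy 1.17.1), 2-sided. Arrays are pools of males from a vial, with 1 array per line and label, and p-values measure the spread between them. The arrays of a labelled line count as 2 arrays; in the check of pairing, deviations from the class means correlated with a mean r of 0.0351 within lines (-0.468 to 0.577) and -0.00636 between lines.

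The members, the 18 gene lists and the tests were chosen with earlier results of these data known. Genes were named by rule: every measured gene up to 10 places away, up to 20 further called genes within 50 places, and up to 10 per direction on the rest of 2R and on other arms. The rule also took every peroxiredoxin, superoxide dismutase, catalase and metallothionein gene with a probe set of its own. Up to 3 called members per list and up to 5 genes per interaction were added. A gene with several probe sets is given by the called one of smallest p, or else the one of highest mean. Alternatives covered line as a block, other covariates, subsets of arrays, other thresholds, normalizations, weights, a filter and a rank test.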

Additional observations from a re-analysis of the deposited data

How the results depend on the processing

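Against 213 calls, the count was 202 with labelled line as a random replicate block, all 202 among the 213, and 22 with line as fixed terms in the replicate block, which rests on the 20 split lines. Smaller sets of arrays gave fewer calls: 36 on arrays labelled control, 77 on arrays labelled lead, 65 and 86 below and above 10 in MtnB, 89 in lines numbered 1 to 100, 64 in lines above 200 and 61 with 1 value per line for lines in 1 class. The rank-sum test gave 138, a filter to the brighter probe sets, above the median in mean, gave 138 of fewer tested, an adjusted p under 0.01 gave 121, and array weights gave 572, for which the cause was not tested. Leaving out each line in turn gave 180 (line 58) to 263 (line 97). The other alternatives, among them class thresholds of 7.3 and 8.3, quantile normalization, median centring and the Act5C difference as a covariate, gave 189 to 302. Without the 4 low arrays between 6.4 and 7.8, chosen after seeing the data, it was 211. Both interactions stayed at 0 under the random block, quantile normalization and the filter. Agreement within labelled lines (p = 0.0909) passed in lines above 200 alone, p = 0.0114 in the exact test, also chosen after seeing the data. Of 58 named genes that passed, 50 did so with every line left out, and none of their 1203 alternative values reversed, while 266 did not pass. These genes were called on the same arrays that the alternatives reuse in whole or in part. The lack of reversals is therefore a description and not separate support. The pseudocount alternative was not run, since the values are logarithms.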
